A study of Mus musculus with 12 samples.

Results

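Tumours of mice treated with IOX2 at a simulated altitude of 3500 m (HI) were compared with tumours of mice given vehicle at the same altitude (HC), in 3 tumours each. These are 6 of the study's 12 bulk RNA sequencing libraries. The comparison covered 14792 of 35434 genes, those with at least 10 counts in 3 or more of the 6 libraries, and these genes held 99.96% of the libraries' counts. All mice were female BALB/c, labelled 6 to 8 weeks old, and each tumour came from a different mouse. Each carried a subcutaneous tumour grown from 4T1, a mouse mammary carcinoma line, so the tumour cells of all groups descend from a single line. HI mice received IOX2 by intraperitoneal injection at 10 mg/kg once a day for 10 days, from day 9 after inoculation, and HC mice received the vehicle. HI and HC mice were kept in a hypobaric chamber, with 3 days of acclimatization before the tumour cells were injected, so the chamber, the altitude and the tumour are common to both groups. Tumours were taken on study day 22. The remaining libraries, used here only to set the result beside the same treatment at about 1500 m, are 3 from mice given IOX2 (MI) and 3 from mice given vehicle (MC) at ambient altitude.

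IOX2 inhibits PHD2, the prolyl hydroxylase encoded by Egln1. When oxygen is plentiful, PHD2 hydroxylates the alpha subunits of hypoxia-inducible factor (HIF), which marks them for destruction by the VHL ubiquitin ligase, and low oxygen or an inhibitor lets HIF accumulate. HIF raises genes for glycolysis, acid handling, vessel growth and, in the kidney, erythropoietin, the hormone that drives red-cell production. Ferroptosis, a cell death through iron-dependent oxidation of membrane lipids, is opposed by cystine import, glutathione and GPX4, and it shares iron and heme genes with the oxygen-sensing pathway.

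No gene passed the main test between HI and HC tumours. In edgeR's quasi-likelihood fit, 0 of 14792 genes (0%) passed a Benjamini-Hochberg adjusted threshold of 0.05, the lowest adjusted value being 0.578. At an unadjusted p under 0.05 there were 727 genes (4.91%), 348 of them higher in HI tumours (2.35%) and 379 lower (2.56%). Limma-voom called 0 genes, limma on log2 FPKM called 0, and DESeq2 called 25 of the 13065 genes for which it gave an adjusted p (0.191%), 12 higher (0.0918%) and 13 lower (0.0995%). The values of the 3 HI tumours lay wholly above or wholly below those of the 3 HC tumours for 1693 genes (11.4%), 856 higher in HI (5.79%) and 837 lower (5.66%). Genes and scores whose groups do not overlap are called apart. An exact permutation test of 3 tumours against 3 cannot give a p below 0.1.

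Gene levels are in CPM, each library's counts scaled to a common total with TMM factors, and the values of a group are given in the order of replicates 1, 2 and 3. Totals were 39492244 to 39762631 counts in HI tumours and 31661685 to 39444390 in HC tumours, the lowest being HC1. Mitochondrial genes took 1.61% to 1.95% of counts in HI tumours and 1.84% to 2.09% in HC tumours. A count of 0 in a library allows a level of up to 0.0739 to 0.0917 CPM, which covers counting error only. The root mean square log2 difference between an HI and an HC library was 0.483 to 0.678 over 9 pairs (median 0.507), against 0.494 to 0.622 between HI libraries (median 0.521) and 0.504 to 0.602 between HC libraries (median 0.544). The median distance between HI and HC libraries was thus below both medians within groups. HI1 and HC1 stood at opposite ends of several gene lists, whose medians are given without each.

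The label was checked with 18 epithelial tumour genes, all of which were above the count minimum. Krt8 and Krt18, keratins of simple epithelia chosen for this check after their values were seen, had 1202, 1194 and 1088 CPM in HI tumours, against 1236, 1286 and 1275 CPM in HC tumours, and 1325, 1271 and 1141 CPM in HI tumours, against 1238, 1285 and 1407 CPM in HC tumours. Epcam, an epithelial adhesion protein chosen in the same way, had 459, 531 and 551 CPM in HI tumours, against 580.1, 414 and 605 CPM in HC tumours. All 3 were abundant in every library. Krt8 was apart and lower in HI tumours by a log2 change of -0.12, and Krt18 and Epcam overlapped. Of the 18 genes 9 had higher and 9 lower values in HI tumours, with a median log2 change of -0.0022. Esrp1, named after its value was seen, was the 1 gene of this list with an unadjusted p under 0.05. That is 5.56% of the list, near the 4.91% of all genes.

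The largest difference between HI and HC tumours, by the median of a list, was in red-cell genes. Of a list of 9 erythroid genes 6 were tested and the other 3 were below the count minimum. Slc4a1, the anion exchanger of the red-cell membrane, reached 10 counts in all 3 HI tumours but among HC tumours in HC2 alone, so it passed the minimum through the group where it was high. The other 5, at 10 counts or more in all 6 tumours, were higher in HI tumours and apart, with log2 changes of 1.55 to 1.83, where the median over all tested genes was 0.00. All 5 had an unadjusted p under 0.05, against 2.35% of all genes in that direction, and 5.79% of all genes were apart and higher. The globin genes share near-identical copies, so reads may be split between Hba-a1 and Hba-a2 and between Hbb-bs and Hbb-bt.

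Promoters of a beta-globin and an alpha-globin gene show what these members share besides the difference. The 210 bases before the gene start are from RefSeq on GRCm38.p6, an older build than the GRCm39 of the counts. Hbb-bt lies on the minus strand at chr7:103813924-103814133 and Hba-a1 on the plus strand at chr11:32283462-32283671. Capitals mark GATAA, the core of sites for GATA factors, and CACCC, the core of sites for KLF factors, each searched on both strands, and no match of one overlaps a match of the other here.
Hbb-bt: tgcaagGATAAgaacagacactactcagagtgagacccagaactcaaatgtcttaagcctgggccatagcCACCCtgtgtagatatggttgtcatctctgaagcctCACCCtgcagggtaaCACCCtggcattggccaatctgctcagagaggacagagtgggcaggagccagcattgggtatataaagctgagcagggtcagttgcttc
Hba-a1: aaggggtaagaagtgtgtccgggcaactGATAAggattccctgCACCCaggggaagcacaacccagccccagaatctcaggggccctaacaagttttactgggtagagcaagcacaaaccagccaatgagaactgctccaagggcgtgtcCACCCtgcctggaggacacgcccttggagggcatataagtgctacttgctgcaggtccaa
Of the 6 tested erythroid genes, 5 had a RefSeq promoter, and each of the 5 held both motifs within 250 bases of the start. Among all 27025 RefSeq promoters, 25.5% held GATAA and 54.5% held CACCC over the same length, and among the 11515 tested genes with a promoter 17.9% and 61.8% did. These letters describe the windows and do not show binding.

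Hbb-bt, a beta-globin gene, had 25.8, 15.6 and 15.1 CPM in HI tumours, against 7.21, 3.65 and 5.06 CPM in HC tumours. Hba-a1, an alpha-globin gene, had 81.1, 53.0 and 43.5 CPM in HI tumours, against 28.6, 15.6 and 16.7 CPM in HC tumours. Hbb-bs, the other adult beta-globin gene, had 167, 92.3 and 85.3 CPM in HI tumours, against 56.2, 29.8 and 29.7 CPM in HC tumours. In each, HI1 was the highest of the 6 tumours and HC1 the highest of the vehicle tumours, and the lowest HI tumour lay above HC1. The log2 changes were 1.83 (SE 0.30) for Hbb-bt, 1.55 (SE 0.26) for Hba-a1 and 1.58 (SE 0.29) for Hbb-bs, or 3.55-fold, 2.92-fold and 2.98-fold in mean CPM. The edgeR adjusted p was 0.578 for both Hbb-bt and Hba-a1, and DESeq2 gave adjusted p values of 3.76e-05 and 5.42e-05. Hba-a2, the other alpha-globin gene, had 18.6, 11.4 and 11.2 CPM in HI tumours, against 6.66, 3.90 and 3.37 CPM in HC tumours. Alas2, the erythroid enzyme that starts heme synthesis, had 21.6, 10.6 and 10.6 CPM in HI tumours, against 5.87, 3.27 and 3.76 CPM in HC tumours. Alas2 and Hba-a2 followed the same order of tumours at the top, with log2 changes of 1.73 (SE 0.39) and 1.57 (SE 0.34), an edgeR adjusted p of 0.935 each and DESeq2 adjusted p values of 0.012 and 0.00674.

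Slc4a1 was chosen after its values were seen, as the member with the largest log2 value. It had 2.81, 0.616 and 0.473 CPM in HI tumours, against 0.183, 0.329 and 0.156 CPM in HC tumours. Its difference came mainly from HI1, although HI2 and HI3 also lay above every HC tumour. The median log2 change over the 6 tested genes, Slc4a1 included, was 1.66, or 1.27 without HI1 and 1.99 without HC1. The summed level of the list was 166.6 to 318 CPM in HI tumours and 56.6 to 105 CPM in HC tumours. In a bulk tumour, fewer or more cells of a type and less or more RNA per cell cannot be told apart, and this holds for every list described here.

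**Figure D1:**
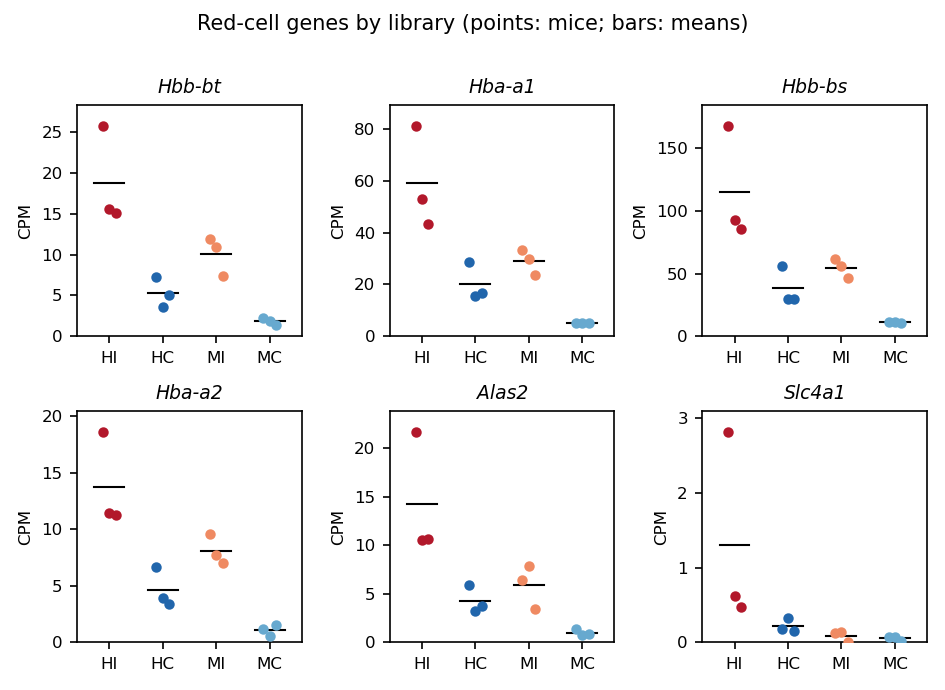
Levels of 6 red-cell genes in each tumour, in CPM on axes from 0, with points for single mice and bars for group means (n = 3 each). HI tumours lie above HC tumours in every panel, HI1 is the highest point for each gene, and MI tumours have higher means than MC tumours.

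IOX2 itself acts on the oxygen-sensing enzymes, whose transcripts differed little in the median. Of 10 genes of oxygen sensing 9 were tested, 7 higher and 2 lower in HI tumours, with a median log2 change of 0.04, which was -0.04 without HC1, 0.03 without HI1 and 0.15 without HC2. Egln1, the gene of PHD2, had 271, 191 and 180.2 CPM in HI tumours, against 126, 182 and 176 CPM in HC tumours. HI1 was high and HC1 low, and the other 4 tumours lay between 176 and 191 CPM, so the groups overlapped. Its log2 change was 0.41 (SE 0.18, edgeR adjusted p = 0.967), or 0.20 without HI1 and 0.26 without HC1. Egln2, a second prolyl hydroxylase, had 49.3, 50.5 and 52.7 CPM in HI tumours, against 50.3, 48.5 and 52.6 CPM in HC tumours. Egln3, a hydroxylase that is itself a HIF target, had 195, 162 and 218 CPM in HI tumours, against 118, 235 and 182 CPM in HC tumours. Both overlapped between the groups, and their log2 changes were 0.01 and 0.10.

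Hif1a, the widely expressed HIF alpha subunit, had 305, 241 and 288 CPM in HI tumours, against 236, 312 and 262 CPM in HC tumours. Epas1, the HIF alpha subunit prominent in endothelium, had 41.5, 33.5 and 30.7 CPM in HI tumours, against 61.0, 40.3 and 38.6 CPM in HC tumours. Arnt, their shared beta subunit, had 76.2, 74.4 and 75.6 CPM in HI tumours, against 78.7, 70.3 and 84.9 CPM in HC tumours. The ranges overlapped for all 3, and the log2 change of Epas1 was -0.40 (SE 0.21, edgeR adjusted p = 0.967), or -0.16 without HC1. Vhl, which encodes the ligase subunit that recognizes hydroxylated HIF, was the 1 apart gene of the 9 tested, against 11.4% of all genes. It had 27.9, 27.9 and 29.5 CPM in HI tumours, against 23.5, 26.0 and 25.1 CPM in HC tumours, a log2 change of 0.19 (SE 0.12, edgeR adjusted p = 0.967).

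Glycolysis enzymes and HIF targets had higher mean values in HI tumours, and the shift rested on HI1 and HC1. Of 22 glycolysis genes 21 had a higher mean in HI tumours and 1 a lower one, with a median log2 change of 0.23. Of 25 other HIF targets 18 were higher and 7 lower, with a median of 0.25. An unadjusted p under 0.05 was reached by 3 glycolysis genes and 2 HIF targets, all higher, and 2 and 3 were apart, all higher. Over all tested genes, 50.3% had a log2 change above 0, 2.35% had such a p and were higher, and 5.79% were apart and higher. The per-tumour score of a list is the mean over its members of log2 CPM minus the gene's mean over the 12 libraries. For glycolysis it was 0.43, 0.13 and 0.05 in HI tumours, against -0.45, 0.19 and 0.07 in HC tumours. For HIF targets it was 0.42, 0.05 and -0.06 in HI tumours, against -0.45, 0.20 and 0.06 in HC tumours. HI1 was the highest and HC1 the lowest tumour in both lists. The other 4 tumours interleaved for glycolysis, and for HIF targets HI2 and HI3 were below HC2 and HC3. Without HI1 the median log2 change was 0.06 for glycolysis and 0.07 for HIF targets, and without HC1 it was 0.07 and 0.05.

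Aldoc, an aldolase, had 72.5, 70.3 and 86.6 CPM in HI tumours, against 34.9, 59.8 and 55.3 CPM in HC tumours. Pdk1, the kinase that inactivates pyruvate dehydrogenase, had 86.4, 66.4 and 69.9 CPM in HI tumours, against 35.1, 64.6 and 57.3 CPM in HC tumours. Both were apart, HC1 being far the lowest, with log2 changes of 0.61 (SE 0.21) and 0.50 (SE 0.20), or 0.41 and 0.28 without HC1. Hk2, a hexokinase, had 187, 164 and 140.5 CPM in HI tumours, against 91.7, 145 and 117 CPM in HC tumours, and Pgk1, phosphoglycerate kinase, had 1386, 1052 and 871 CPM in HI tumours, against 618, 1003 and 987 CPM in HC tumours. Hk2 and Pgk1 overlapped between the groups at log2 changes of 0.48 and 0.34, and the edgeR adjusted p was 0.967 for each of the 4 genes. The HIF target Car9, a carbonic anhydrase, had 201, 139 and 134 CPM in HI tumours, against 62.6, 119.5 and 119 CPM in HC tumours. It was apart, with a log2 change of 0.66 (SE 0.28), 0.44 without HI1 and 0.41 without HC1. Car12, a related carbonic anhydrase, overlapped at a log2 change of 0.42, and Fam162a, a hypoxia-induced mitochondrial protein, was apart at 0.38. Without HC1 these values were 0.24 and 0.22.

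Ddit4, a HIF target that restrains the growth kinase mTORC1, was the HIF target with the smallest p. It had 256, 239.9 and 205 CPM in HI tumours, against 162, 176 and 182 CPM in HC tumours, so every HI tumour lay above every HC tumour. The log2 change was 0.43 (SE 0.11), with an adjusted p of 0.935 in edgeR and 0.061 in DESeq2, and 0.36 to 0.52 when single libraries were left out. Its promoter is shown for the HIF core motif ACGTG, in capitals, searched on both strands. The gene lies on the minus strand, and the window is chr10:59951771-59951980 on GRCm38.p6 (RefSeq).
Ddit4: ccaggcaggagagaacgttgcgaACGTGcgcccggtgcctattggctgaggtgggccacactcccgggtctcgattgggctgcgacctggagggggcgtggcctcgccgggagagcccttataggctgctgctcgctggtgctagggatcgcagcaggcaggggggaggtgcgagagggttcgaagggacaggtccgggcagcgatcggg
The motif stood 187 bases before the start. It was present within 250 bases in 11 of 17 HIF targets with a RefSeq promoter (64.7%), in 10 of 21 glycolysis genes (47.6%), in 24.3% of the 11515 tested genes with a promoter and in 18.5% of all RefSeq promoters.

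**Figure D2:**
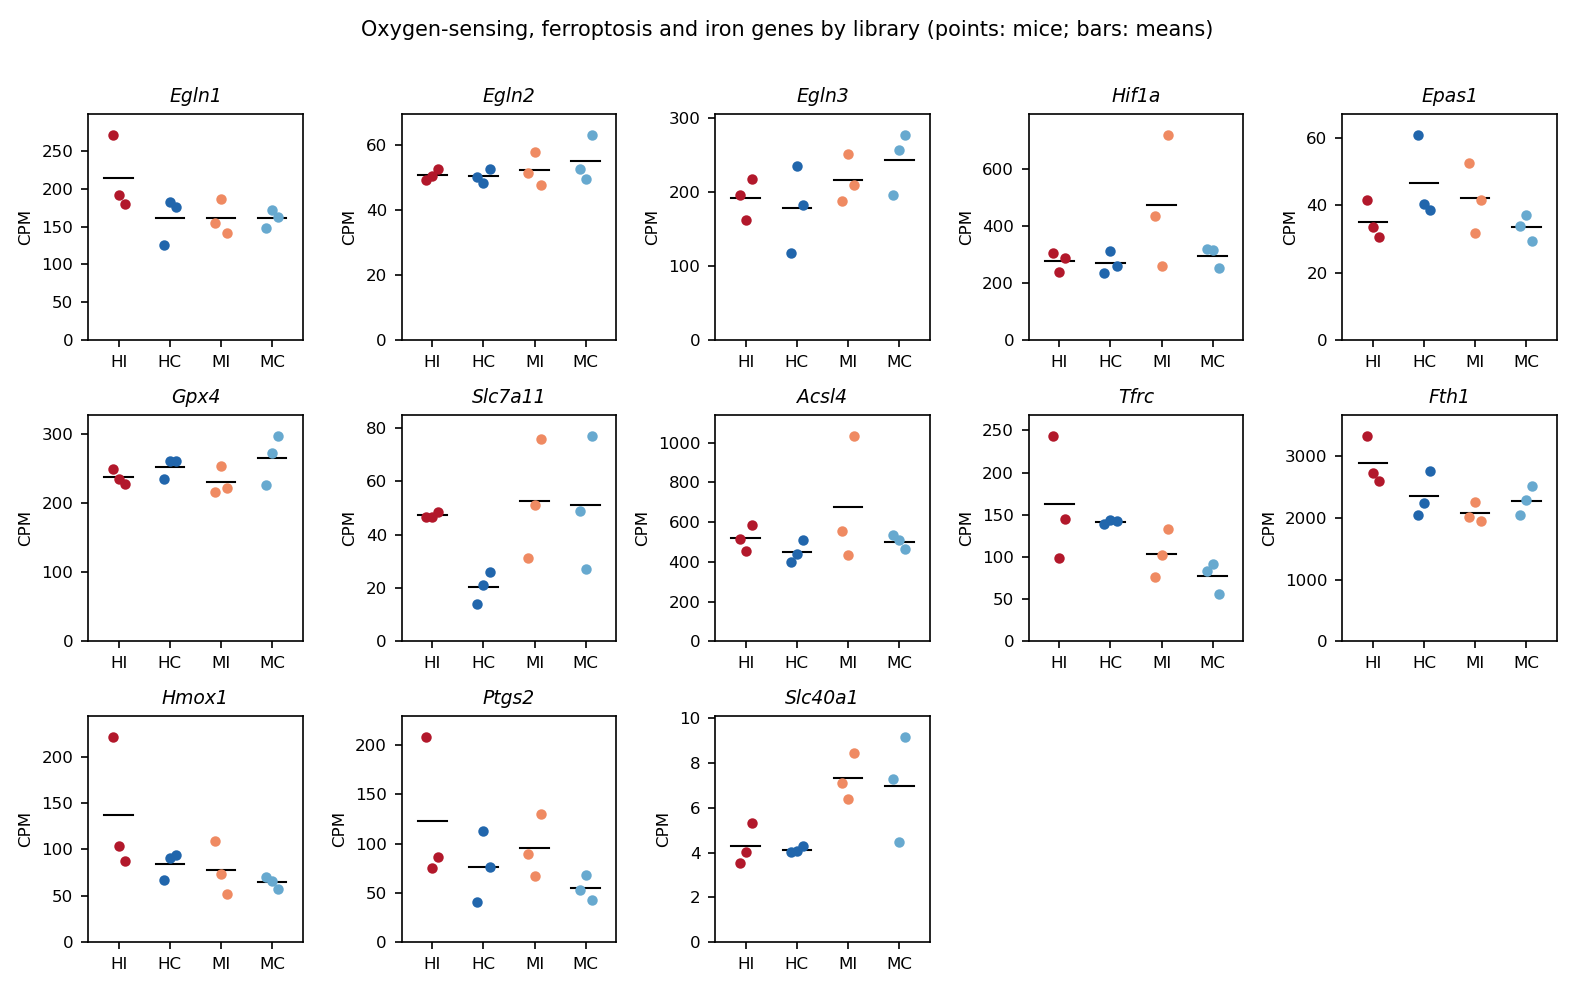
Levels of 13 genes of oxygen sensing, ferroptosis and iron in each tumour, in CPM on axes from 0, with points for single mice and bars for means (n = 3 each). HI and HC tumours are apart in the Slc7a11 panel, and in the Egln1, Hmox1, Ptgs2 and Tfrc panels the HI mean is pulled up by HI1.

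Among ferroptosis genes the largest difference was in Slc7a11, the cystine importer that supplies glutathione synthesis. It had 46.7, 46.7 and 48.4 CPM in HI tumours, against 13.9, 21.1 and 26.1 CPM in HC tumours. The 3 HI tumours were nearly equal and lay above the whole range of the HC tumours, a mean of 47.3 ± 0.983 CPM in HI tumours and 20.4 ± 6.11 CPM in HC tumours (SD, n = 3 each). The log2 change was 1.21 (SE 0.38, unadjusted p = 0.00783, edgeR adjusted p = 0.967), DESeq2 gave an adjusted p of 0.212, and leaving out single libraries gave 1.00 to 1.42. In tumours at ambient altitude the same gene had 31.3, 51.2 and 76.0 CPM in MI tumours, against 48.7, 27.2 and 77.1 CPM in MC tumours. Those groups overlapped and held values both above and below the HI level, and the HC group had the lowest mean of the 4 groups.

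The Slc7a11 promoter is shown because the gene belongs to both the ATF4 and NRF2 lists. The window is chr3:50443614-50443823 on the minus strand of GRCm38.p6 (RefSeq), and capitals mark TGATGNAA, the core of the C/EBP-ATF element that ATF4 binds, searched on both strands.
Slc7a11: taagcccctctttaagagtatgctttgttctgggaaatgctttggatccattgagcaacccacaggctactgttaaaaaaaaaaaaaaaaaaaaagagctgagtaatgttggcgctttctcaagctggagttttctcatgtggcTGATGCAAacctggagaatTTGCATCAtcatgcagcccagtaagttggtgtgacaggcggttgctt
Both matches lie within 66 bases of the start, in opposite orientations. The motif was in 6 of 16 ATF4 response genes with a RefSeq promoter (37.5%), in 2.5% of tested genes with a promoter and in 3.91% of all RefSeq promoters. Most members of the ATF4 list, which serves amino acid supply and stress, lay in the other direction: 12 of 18 were lower in HI tumours and the median log2 change was -0.11, or -0.03 without HI3 and -0.27 without HI1. Shmt2, a mitochondrial serine enzyme, had 131, 125 and 104 CPM in HI tumours, against 152, 149 and 145 CPM in HC tumours. It was apart in the opposite direction to Slc7a11, with a log2 change of -0.31 (SE 0.09, edgeR adjusted p = 0.967). Asns, asparagine synthetase, and Chac1, which degrades glutathione, had log2 changes of -0.40 and -0.75 and overlapped between the groups. Without HI3 these values were -0.15 and -0.44, and without HI1 -0.77 and -1.30.

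As lists, the ferroptosis genes had small median differences. Of 22 suppressors 16 were higher and 6 lower (median log2 change 0.08), with 3 at an unadjusted p under 0.05, all higher (2.35% over all genes), and 1 apart. Of 27 tested drivers out of 28, 11 were higher and 16 lower (median -0.04), with 1 at an unadjusted p under 0.05 and 2 apart. Over all genes 11.4% were apart, a larger share than in either list. Gpx4, the enzyme that reduces oxidized membrane lipids, had 249, 235 and 227 CPM in HI tumours, against 235, 261 and 260.2 CPM in HC tumours. Acsl4, the ligase that activates polyunsaturated fatty acids for membrane lipids, had 515, 457 and 583 CPM in HI tumours, against 399.8, 440.3 and 509 CPM in HC tumours. Both overlapped, with log2 changes of -0.09 (SE 0.11) and 0.20 (SE 0.25). Ptgs2, a prostaglandin synthase often used as a ferroptosis marker, had 208, 75.2 and 86.7 CPM in HI tumours, against 40.6, 112 and 76.3 CPM in HC tumours. HI1 was far above all other tumours, and the log2 change of 0.69 (SE 0.43) was 0.08 without it and 0.39 without HC1. Scd2, a fatty acid desaturase, Txnrd1, a thioredoxin reductase, and Dpp4, a membrane peptidase, overlapped at 0.38, 0.18 and 0.47.

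Iron genes were evenly split, 14 of 26 higher and 12 lower (median log2 change 0.03, and -0.02 without HI1). Fth1, the ferritin heavy chain that stores iron, had 3327, 2720.2 and 2599.9 CPM in HI tumours, against 2042, 2246 and 2755 CPM in HC tumours. HC3 lay within the HI range, and the log2 change was 0.30 (SE 0.13, edgeR adjusted p = 0.967), or 0.18 without HI1. Tfrc, the receptor for iron uptake, had 244, 99.1 and 145 CPM in HI tumours, against 139, 144 and 143 CPM in HC tumours. The HC tumours were nearly equal while the HI tumours spread to both sides of them, so the log2 change of 0.20 turned to -0.22 without HI1. Slc40a1, the iron exporter, had 3.54, 4.02 and 5.33 CPM in HI tumours, against 4.03, 4.05 and 4.28 CPM in HC tumours, overlapping at a log2 change of 0.06. Trf, transferrin, was apart and lower in HI tumours, with 265, 228 and 244 CPM in HI tumours, against 333, 339 and 294 CPM in HC tumours and a log2 change of -0.39 (SE 0.15, edgeR adjusted p = 0.967). Slc25a28, a mitochondrial iron carrier, was apart and higher at 0.15.

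NRF2 targets, the antioxidant and heme-degrading genes, were higher in 18 of 21 cases with a median log2 change of 0.18, and 3 were apart and higher (5.79% over all genes). Hmox1, heme oxygenase, had 221, 103 and 88.0 CPM in HI tumours, against 66.7, 91.0 and 94.1 CPM in HC tumours. HI1 was far above all other tumours, and HI3 lay within the HC range, so the groups overlapped, and the log2 change of 0.71 (SE 0.33, edgeR adjusted p = 0.967) was 0.18 without HI1. The median of the NRF2 list was 0.05 without HI1, 0.17 without HC1 and 0.30 without HI3. HI1 was also the tumour with the highest summed red-cell genes, and whether the heme and iron genes of HI1 depend on its red-cell content was not tested.

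Genes of blood vessel lining were lower in HI tumours as a group. Of 27 endothelial genes, all tested, 25 had lower and 2 higher values, with a median log2 change of -0.35. An unadjusted p under 0.05 was reached by 13 of the 27, all lower, against 2.56% of all genes, and 12 were apart, all lower, against 5.66%. The list score was -0.34, -0.22 and -0.36 in HI tumours, against 0.09, -0.12 and 0.05 in HC tumours, which did not overlap. The summed level was 1003 to 1044 CPM in HI tumours and 1145 to 1245 CPM in HC tumours. The median lay between -0.45 and -0.26 when single libraries were left out.

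Bcl6b, a transcriptional repressor expressed in endothelium, had 5.34, 5.96 and 5.70 CPM in HI tumours, against 8.56, 9.27 and 9.40 CPM in HC tumours. Tie1, an endothelial receptor tyrosine kinase, had 25.2, 24.3 and 22.7 CPM in HI tumours, against 37.6, 30.3 and 37.4 CPM in HC tumours. Every HI tumour was below every HC tumour for both, with log2 changes of -0.68 (SE 0.15) and -0.54 (SE 0.12), an edgeR adjusted p of 0.935 each and DESeq2 adjusted p values of 0.0163 and 0.0319. Cdh5, the cadherin that joins endothelial cells, had 57.1, 69.0 and 62.4 CPM in HI tumours, against 101, 72.7 and 92.9 CPM in HC tumours. Ramp2, a receptor partner for adrenomedullin, had 7.26, 6.90 and 6.17 CPM in HI tumours, against 13.7, 8.48 and 9.73 CPM in HC tumours. They were apart too, with HC1 the highest tumour, and their log2 changes were -0.50 (SE 0.13) and -0.65 (SE 0.18), each with an edgeR adjusted p of 0.967. The value for Ramp2 was -0.43 without HC1.

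Wall cells and matrix tended the same way with more overlap. Of 14 mural genes, which mark pericytes and vascular smooth muscle, 12 were lower (median -0.25, and -0.14 without HI3) and 2 were apart (5.66% over all genes in that direction). Of 19 collagen and matrix genes 18 were lower (median -0.25) and 4 were apart, and without HC1 the median was -0.07. Col4a1, a collagen of basement membranes, had 835, 814 and 805 CPM in HI tumours, against 1091, 880.3 and 1020.3 CPM in HC tumours. Sparc, a matrix protein that binds collagen, had 1705, 1643 and 1415 CPM in HI tumours, against 2365, 1820.0 and 1742 CPM in HC tumours. Both were apart, at log2 changes of -0.29 (SE 0.09, edgeR adjusted p = 0.967) and -0.31 (SE 0.15). Col6a1 and Col6a2, chains of collagen VI, were apart at -0.42 and -0.45. Without HC1 the values were -0.17 for Sparc and -0.19 for Col6a2. Pdgfrb, the pericyte growth factor receptor, and Acta2, smooth muscle actin, were apart at -0.24 and -0.27, and Higd1b and Mylk overlapped at -0.92 and -0.31.

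Fat and muscle markers varied between tumours within each group. The 12 adipocyte genes were all lower in HI tumours (median -0.83, and -0.24 without HC1 or -1.78 without HI2) with 0 at an unadjusted p under 0.05 and 0 apart. Their summed level was 167 to 522 CPM in HI tumours and 213 to 861 CPM in HC tumours, and their score was 0.72, 1.52 and -1.54 in HI tumours, against 2.24, 1.73 and -0.84 in HC tumours. Of 14 skeletal muscle genes 12 were lower (median -0.29, but 0.79 without HC1 and 0.03 without HI3), at 78.4 to 219 CPM summed in HI tumours and 62.5 to 438 CPM in HC tumours. HC1 was the highest HC tumour in both lists, no member of either list was at 0 in all 6 tumours, and the part of such tissue in the matrix and vessel differences was not tested.

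**Figure D3:**
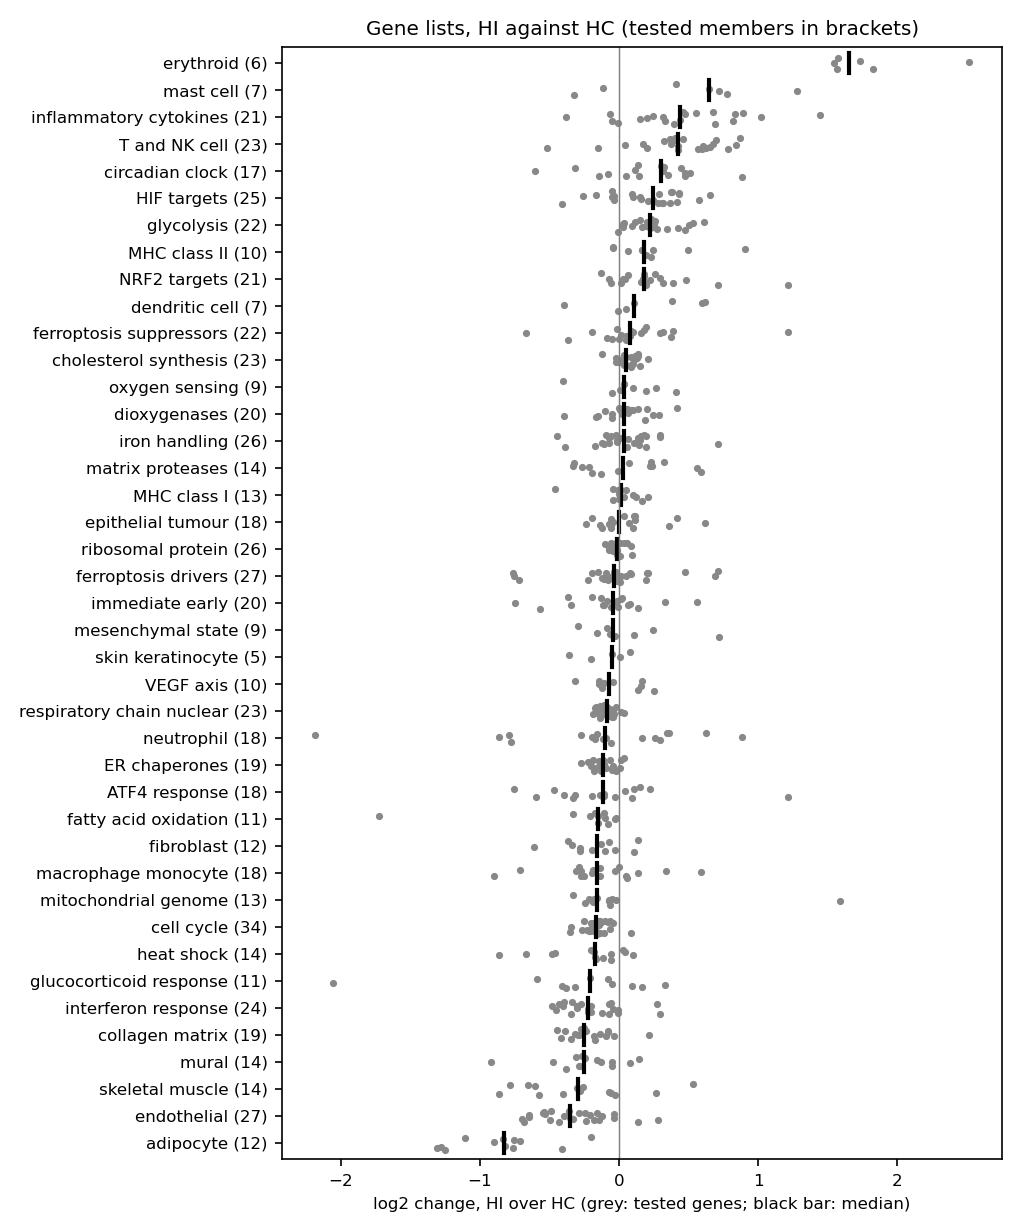
Log2 change of HI over HC for every tested gene of the lists with at least 5 tested members. Grey points are genes, black bars the list medians, and lists are ordered by median. The erythroid list, Slc4a1 included, lies at the top with a median of 1.66, and the endothelial and adipocyte lists lie at the bottom with medians of -0.35 and -0.83.

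Interferon response genes were also lower in HI tumours. Of 24 tested members, 22 were lower and 2 higher, with a median log2 change of -0.22, which stayed between -0.27 and -0.19 when single libraries were left out. Of these 24, 8 had an unadjusted p under 0.05, all lower (2.56% over all genes), and 14 were apart, all lower (5.66% over all genes). The score was -0.14, -0.18 and -0.05 in HI tumours, against -0.03, 0.11 and 0.12 in HC tumours, which did not overlap, the gap between HI3 and HC1 being small. Isg15 encodes a ubiquitin-like protein induced by interferon, and its promoter is shown for the interferon-stimulated response element, here GAAA, any 2 bases, then GAAAC, in capitals, searched on both strands. The window is chr4:156200819-156201028 on the minus strand of GRCm38.p6 (RefSeq).
Isg15: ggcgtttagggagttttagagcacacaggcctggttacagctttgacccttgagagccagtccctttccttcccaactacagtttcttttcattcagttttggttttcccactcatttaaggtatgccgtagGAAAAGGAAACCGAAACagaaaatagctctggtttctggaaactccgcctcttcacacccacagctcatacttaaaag
The capitals are 2 overlapping matches. The motif was in 7 of 18 interferon response genes with a RefSeq promoter (38.9%), in 0.921% of tested genes with a promoter and in 0.796% of all RefSeq promoters.

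Isg15 had 55.3, 69.6 and 63.5 CPM in HI tumours, against 87.2, 87.8 and 87.7 CPM in HC tumours. Rigi, the cytosolic sensor of viral RNA, had 71.5, 72.6 and 73.7 CPM in HI tumours, against 96.7, 87.0 and 93.5 CPM in HC tumours. Irf7, the transcription factor that amplifies interferon, had 138, 146 and 166 CPM in HI tumours, against 204, 189 and 222 CPM in HC tumours. All 3 were apart, and the HC values of Isg15 differed by under 1 CPM. The log2 changes were -0.48 (SE 0.13), -0.35 (SE 0.09) and -0.45 (SE 0.14), with edgeR adjusted p values of 0.967, 0.935 and 0.967, and Rigi was called by DESeq2 (adjusted p = 0.0498). Oasl1, another interferon-induced gene, had 26.1, 27.9 and 28.1 CPM in HI tumours, against 35.6, 37.6 and 37.2 CPM in HC tumours, apart at a log2 change of -0.43 (SE 0.13). Hsh2d, an SH2 adaptor of blood cells, and Phf11d, a PHD-finger protein, were not in the list but among the leading lower genes. Hsh2d had 5.83, 5.30 and 5.60 CPM in HI tumours, against 9.20, 8.69 and 9.79 CPM in HC tumours, and Phf11d had 44.7, 44.9 and 51.7 CPM in HI tumours, against 61.4, 71.0 and 65.4 CPM in HC tumours. They were apart at log2 changes of -0.73 (SE 0.14) and -0.49 (SE 0.10), with an edgeR adjusted p of 0.935 each and DESeq2 adjusted p values of 0.00137 and 0.0163.

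T and natural killer cell genes lay in the opposite direction. Of 23 genes 21 were higher in HI tumours, with a median log2 change of 0.42, which was 0.35 to 0.59 with single HI or HC libraries left out. An unadjusted p under 0.05 was reached by 2, both higher (2.35% over all genes), and 4 were apart, all higher (5.79%). Their score was -0.17, 0.16 and 0.34 in HI tumours, against -0.31, -0.22 and -0.26 in HC tumours. The groups did not overlap in it, although HI1 was close to HC2. Summed levels were 164 to 227 CPM in HI tumours and 128 to 158 CPM in HC tumours. Ifng, the interferon of these cells, had 2.92, 1.73 and 2.19 CPM in HI tumours, against 1.19, 1.44 and 1.32 CPM in HC tumours. Cd3g, a chain of the T cell receptor complex, had 8.41, 17.2 and 14.9 CPM in HI tumours, against 8.04, 7.04 and 7.09 CPM in HC tumours. Gzmb, a killing granule protease, had 49.97, 64.7 and 52.0 CPM in HI tumours, against 21.8, 47.6 and 36.4 CPM in HC tumours. The 3 genes were apart, HI1 being near the HC range for Cd3g, and their log2 changes were 0.78 (SE 0.26), 0.87 (SE 0.34) and 0.65 (SE 0.32), with an edgeR adjusted p of 0.967 each. The value for Gzmb was 0.40 without HC1. Zap70, the T cell signalling kinase, overlapped at 0.60.

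Gpr183, the oxysterol receptor that guides lymphocytes and dendritic cells, was among the leading higher genes. It had 5.16, 6.36 and 6.60 CPM in HI tumours, against 3.06, 3.60 and 2.91 CPM in HC tumours. The lowest HI tumour lay well above the highest HC tumour, with a log2 change of 0.92 (SE 0.18) and an adjusted p of 0.935 in edgeR and 0.00396 in DESeq2. Among the leading lower genes, Il3ra, the interleukin-3 receptor chain, had 6.87, 6.48 and 6.84 CPM in HI tumours, against 9.96, 9.42 and 10.3 CPM in HC tumours, and Ada, adenosine deaminase, had 12.8, 10.8 and 12.5 CPM in HI tumours, against 19.1, 19.5 and 15.1 CPM in HC tumours. Both were apart, at log2 changes of -0.55 (SE 0.13) and -0.57 (SE 0.14).

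Myeloid genes were mixed. Of 18 macrophage and monocyte genes 13 were lower (median -0.16, and -0.04 without HC1 or -0.26 without HC3), and of 18 neutrophil genes 11 were lower (median -0.10, but 0.27 without HC2, 0.04 without HC3 and -0.32 without HC1). Mertk, a receptor for engulfing dead cells, had 13.4, 11.2 and 9.61 CPM in HI tumours, against 27.9, 14.8 and 20.9 CPM in HC tumours. Mrc1, the mannose receptor of macrophages, had 217, 118 and 106 CPM in HI tumours, against 268, 217 and 236 CPM in HC tumours. Itgam, an integrin of myeloid cells, had 129, 123 and 123 CPM in HI tumours, against 90.3, 108 and 98.1 CPM in HC tumours. Mertk and Mrc1 were apart and lower, at -0.90 (SE 0.23, edgeR adjusted p = 0.935) and -0.71 (SE 0.27, edgeR adjusted p = 0.967), Mrc1 by a narrow gap between HI1 and HC2, and Itgam was apart and higher at 0.34. C1qc, a complement component of macrophages, overlapped at -0.29. Clec4d and Clec4e, pattern receptors of myeloid cells, were apart and higher at 0.89 (SE 0.27) and 0.63 (SE 0.24), or 0.59 for Clec4d without HI1 and 0.34 for Clec4e without HC1. The value for Mrc1 was -1.11 without HI1. Ly6g, a neutrophil surface marker with very few reads here, had 0.0521, 0.148 and 0.398 CPM in HI tumours, against 0.336, 0.937 and 1.48 CPM in HC tumours, and Mmp8, a neutrophil collagenase, overlapped at -0.79. Ly6g reached 10 counts in all HC tumours but in HI3 alone among HI tumours, and Mmp8 was at -0.01 without HC3.

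Inflammatory cytokines had a median log2 change of 0.44, with 17 of 21 higher, 1 apart in each direction and 0 at an unadjusted p under 0.05. Over all genes 50.3% were higher, 5.79% were apart and higher, 5.66% were apart and lower, and 4.91% had such a p. HC1 was far the lowest tumour and HI1 the highest, at scores of 0.94, 0.24 and 0.37 in HI tumours, against -0.64, 0.55 and 0.08 in HC tumours, and the median was 0.08 without HI1 and 0.20 without HC1. Cxcl2, a chemokine that attracts neutrophils, had 37.6, 21.2 and 20.2 CPM in HI tumours, against 1.13, 19.2 and 8.64 CPM in HC tumours, apart by a narrow gap, HC2 lying just under HI3. Il1b, the fever cytokine, had 107, 71.9 and 102 CPM in HI tumours, against 20.9, 103 and 35.0 CPM in HC tumours, with HC2 inside the HI range. Their log2 changes were 1.44 (SE 0.73) and 0.82 (SE 0.43), and those of the chemokines Ccl3 and Ccl7 were 0.89 and -0.38. Cxcl2 and Il1b were at 0.92 and 0.44 without HC1 and at 2.41 and 1.74 without HC2, and Ccl3 was at 0.41 without HI1.

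Protein-folding genes were slightly lower in HI tumours. Of 19 chaperones and folding factors of the endoplasmic reticulum (ER) 16 were lower, with a median log2 change of -0.11, and 6 were apart, all lower (5.66% over all genes). The median was -0.08 without HI1 and -0.17 without HI3. The score was -0.17, -0.13 and -0.08 in HI tumours, against -0.04, 0.01 and -0.01 in HC tumours, which did not overlap. Hspa5, the main ER chaperone, had 1381, 1376 and 1446 CPM in HI tumours, against 1487, 1626 and 1725 CPM in HC tumours. Herpud1, a component of ER-associated degradation, had 49.2, 46.0 and 40.7 CPM in HI tumours, against 54.5, 50.6 and 59.1 CPM in HC tumours. Both were apart, and their log2 changes were -0.20 (SE 0.09) and -0.27 (SE 0.12), with an edgeR adjusted p of 0.967 each; Calr and Manf, an ER chaperone and an ER stress protein, were apart at -0.18 and -0.18. Of 14 cytosolic and mitochondrial heat shock genes 11 were lower (median -0.17, and -0.02 without HC3) and 4 were apart, all lower. Hsph1, a cytosolic chaperone of the Hsp110 family, had 49.0, 39.8 and 40.2 CPM in HI tumours, against 60.2, 63.9 and 53.7 CPM in HC tumours. Hspd1, the mitochondrial chaperonin, had 402, 397 and 375 CPM in HI tumours, against 444, 455 and 426 CPM in HC tumours. These were apart, at log2 changes of -0.46 (SE 0.11, edgeR adjusted p = 0.935) and -0.17 (SE 0.07). Its partner Hspe1 was apart at -0.20, and Hspa1a, whose reads are shared with the near-identical Hspa1b, overlapped at -0.86, or -0.0044 without HC3.

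Cell cycle genes were lower in 33 of 34 cases by a small amount, a median log2 change of -0.17, or -0.07 without HC2 and -0.28 without HC3. Of the 34, 2 were apart and 2 had an unadjusted p under 0.05, all lower, against 5.66% and 2.56% over all genes. Cdc20, an activator of the anaphase-promoting complex, had 81.4, 80.8 and 89.8 CPM in HI tumours, against 105, 124 and 90.3 CPM in HC tumours, and Plk1, a mitotic kinase, had 75.2, 74.1 and 83.2 CPM in HI tumours, against 97.5, 112 and 87.7 CPM in HC tumours. The gap between the groups was narrow in both, HC3 lying next to HI3, and the log2 changes were -0.34 (SE 0.14) and -0.35 (SE 0.15). Aurka and Gins2 overlapped at -0.27 and -0.19. All 11 genes of fatty acid oxidation were lower (median -0.15), with 3 apart, against 5.66% of all genes. Slc25a20, the carnitine carrier, had 24.9, 22.4 and 21.7 CPM in HI tumours, against 32.2, 26.9 and 27.4 CPM in HC tumours, and Hadha, a subunit of the mitochondrial trifunctional protein, had 126, 141 and 141 CPM in HI tumours, against 163, 146 and 163 CPM in HC tumours. Both were apart, at log2 changes of -0.33 and -0.21, with an edgeR adjusted p of 0.967 each, while Hadhb, the partner subunit of Hadha, overlapped at -0.15.

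Clock and steroid genes also differed in places. Of 17 tested circadian clock genes 13 were higher (median 0.30, and 0.06 without HI1 or 0.12 without HC1) and 4 were apart and higher (5.79% over all genes). Among the 13 is Hlf, named after its values were seen, which reached 10 counts in all HI tumours but in only 1 HC tumour. Bhlhe41, a clock repressor, had 87.1, 69.8 and 62.4 CPM in HI tumours, against 48.7, 47.3 and 61.3 CPM in HC tumours. Per3, a period gene, had 13.5, 13.5 and 10.7 CPM in HI tumours, against 8.62, 10.2 and 8.36 CPM in HC tumours, and Tef, a clock output factor, had 63.7, 61.9 and 54.1 CPM in HI tumours, against 43.0, 50.3 and 47.2 CPM in HC tumours. The 3 genes were apart, at log2 changes of 0.48 (SE 0.13), 0.47 (SE 0.16) and 0.35 (SE 0.12), and Dbp, another clock output factor, overlapped at 0.51. The hour of collection is not given in the sources used here. Of 11 glucocorticoid response genes 8 were lower (median -0.21, but 0.04 without HI3 and -0.43 without HI1). Fkbp5, a chaperone of the glucocorticoid receptor, had 191, 168 and 156 CPM in HI tumours, against 305, 191 and 275 CPM in HC tumours. It was apart at a log2 change of -0.59 (SE 0.15, edgeR adjusted p = 0.965), HI1 and HC2 being nearly equal. Zbtb16, a glucocorticoid-induced repressor, had 1.64, 0.887 and 0.174 CPM in HI tumours, against 8.13, 1.29 and 1.87 CPM in HC tumours, overlapping, at a log2 change of -2.06 that was -0.81 without HC1, and Tsc22d3 and Dusp1 overlapped at -0.41 and 0.33.

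The other leading genes were single genes of varied roles. Among the higher ones, Zfp36l2, which binds AU-rich elements and speeds mRNA decay, had 690.1, 673 and 671 CPM in HI tumours, against 491, 504 and 580.2 CPM in HC tumours. Dnajc27, a small GTPase with a J domain, had 17.8, 17.5 and 17.4 CPM in HI tumours, against 13.5, 12.3 and 13.9 CPM in HC tumours. Vopp1 had 60.5, 60.7 and 61.2 CPM in HI tumours, against 48.2, 51.5 and 49.7 CPM in HC tumours. In these 3 the HI tumours were nearly equal, and all lay above the HC tumours. Their log2 changes were 0.37 (SE 0.08), 0.41 (SE 0.09) and 0.29 (SE 0.07), with DESeq2 adjusted p values of 0.00194, 0.00714 and 0.0163, against 0.935 in edgeR for each. Sertad4 had 47.0, 54.5 and 47.1 CPM in HI tumours, against 33.6, 39.1 and 33.4 CPM in HC tumours, and Nuak1, a kinase related to AMPK, had 94.9, 112 and 95.8 CPM in HI tumours, against 74.9, 65.5 and 78.6 CPM in HC tumours, apart at log2 changes of 0.48 (SE 0.10) and 0.47 (SE 0.11).

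Among the lower ones, Paqr8, a membrane progestin receptor, had 6.04, 5.003 and 6.27 CPM in HI tumours, against 11.0, 8.33 and 9.97 CPM in HC tumours. Dpp7, a lysosomal peptidase, had 6.90, 7.42 and 8.96 CPM in HI tumours, against 12.1, 12.1 and 10.9 CPM in HC tumours. Gnpda1, which deaminates glucosamine phosphate, had 24.1, 22.2 and 18.5 CPM in HI tumours, against 29.2, 27.2 and 28.6 CPM in HC tumours, and Smim29 had 21.3, 18.7 and 19.9 CPM in HI tumours, against 26.7, 24.3 and 25.2 CPM in HC tumours. Every HI tumour was below every HC tumour for these 4, the gap relative to the level being smallest for Gnpda1 and Smim29. The log2 changes were -0.76 (SE 0.18), -0.59 (SE 0.13), -0.39 (SE 0.10) and -0.35 (SE 0.09), with an edgeR adjusted p of 0.935 each. The 24 leading genes were chosen as apart genes with the smallest p, so their lack of overlap is part of their choice. Of the 25 genes DESeq2 called, 21 are among them. The remaining 4, named after their values were seen, are Zbtb4 and Ppp1r3f, higher in HI tumours, and Nop2 and Ghitm, lower in HI tumours.

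**Figure D4:**
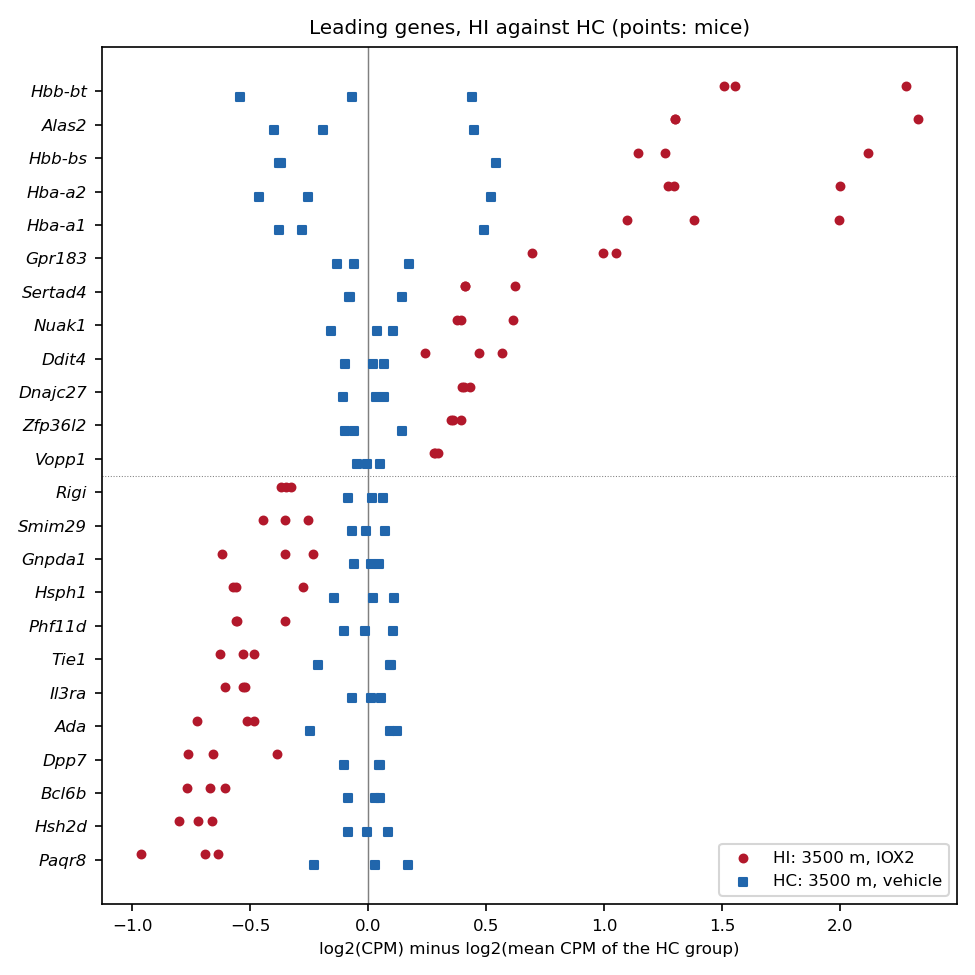
The 12 leading higher and 12 leading lower genes, as log2 CPM of each tumour minus log2 of the HC mean. Circles are HI tumours, drawn above the squares of HC tumours, and the dotted line parts higher from lower genes. The red-cell genes at the top have the largest differences and the widest spread, and most other genes lie within 1 log2 unit of the HC mean.

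At ambient altitude the same drug gave the same direction for red-cell genes. In MI against MC tumours, a comparison that shares no library with HI against HC, edgeR called 4 of 14792 genes (0.027%), and all 4 were globin genes. Before adjustment 1400 genes (9.46%) were under 0.05. In the same comparison limma-voom called 0 (0%, lowest adjusted p = 0.163) and DESeq2 called 20 of 14781 (0.135%). The 4 edgeR calls fell to 0 when HI2, MI1, MC1, MC2 or MC3 was left out and to 1 without HC3, and 11 genes were called without MI2, in a fit where all 12 libraries share 1 estimate of the spread. Hbb-bt had 11.9, 11.0 and 7.39 CPM in MI tumours, against 2.22, 1.89 and 1.40 CPM in MC tumours. Hba-a1 had 33.4, 30.0 and 23.7 CPM in MI tumours, against 4.97, 5.15 and 5.14 CPM in MC tumours. Their log2 changes were 2.46 (edgeR adjusted p = 0.0272) and 2.51 (edgeR adjusted p = 0.0197), against 1.83 and 1.55 at simulated altitude. The test of the difference between the 2 effects gave interaction log2 values of -0.63 (SE 0.42, edgeR adjusted p = 0.65) and -0.97 (SE 0.37, edgeR adjusted p = 0.598). Under vehicle, Hba-a1 averaged 20.3 ± 7.18 CPM in HC tumours and 5.09 ± 0.103 CPM in MC tumours (SD, n = 3 each), a difference that was not tested.

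Across all 14792 genes the HI against HC and MI against MC changes had a Pearson correlation of -0.19 and a Spearman correlation of -0.13, as a description over genes that are not independent, and 47.1% had the same sign. Of the 24 leading genes, 16 had the opposite sign in MI against MC tumours, 6 of the higher and 10 of the lower ones. The interaction test in edgeR called 0 of 14792 genes (0%, lowest adjusted p = 0.598). Before adjustment 1213 genes (8.2%) were under 0.05, and DESeq2 called 32 of 13922 (0.23%). The groups were apart in opposite directions at the 2 altitudes for 134 genes (0.906%) and in the same direction for 82 (0.554%).

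**Figure D5:**
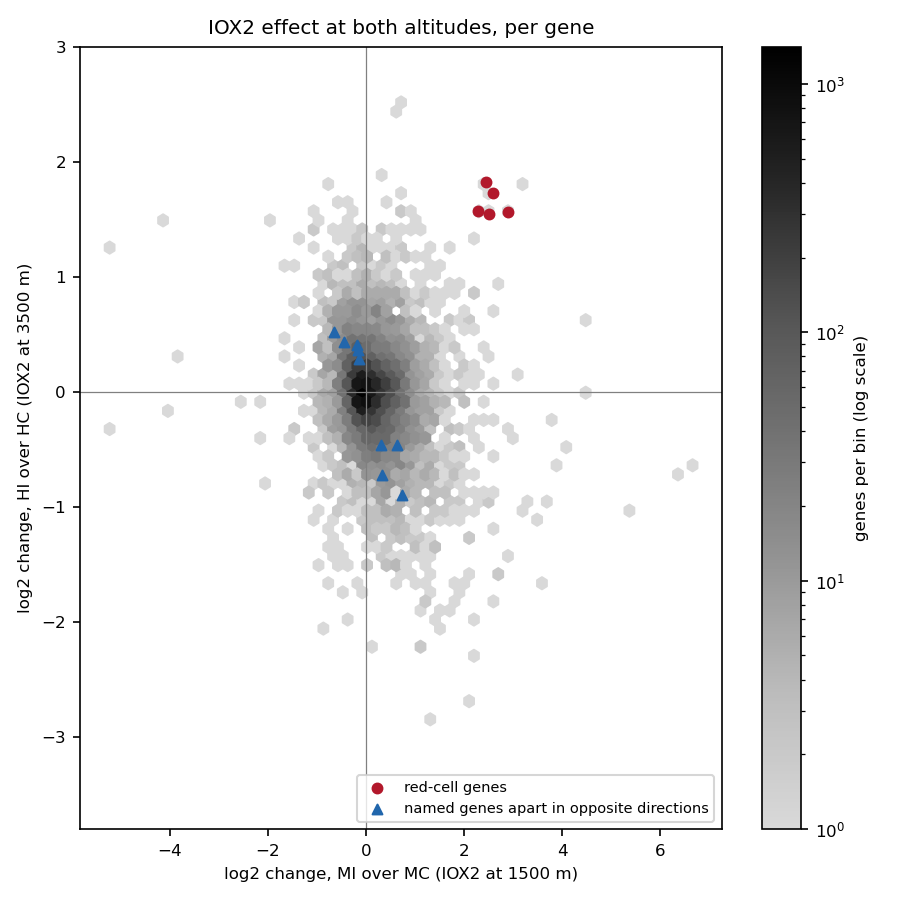
Log2 change of each tested gene under IOX2 at about 1500 m (MI over MC, horizontal) and at 3500 m (HI over HC, vertical), with darker bins holding more genes. Circles are 5 red-cell genes, in the upper right, and triangles are 9 named genes that were apart in opposite directions at the 2 altitudes.

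By the rule, 3 higher and 3 lower genes had the smallest interaction p among genes that were also apart between HI and HC tumours. Being chosen by that p, they get no separate support from DESeq2 calls on the same libraries. Ddit4 had 143, 167 and 145 CPM in MI tumours, against 187, 218 and 217 CPM in MC tumours, lower in every MI tumour than in any MC tumour, and its interaction was 0.88 (SE 0.15). The edgeR adjusted p of the interaction was 0.598 for each of the 6 genes, while DESeq2 called all 6, with adjusted p values of 0.000551 for Ddit4, 0.000905 for Hsh2d, 0.00205 for both Zfp36l2 and Rnf125, 0.00557 for Phf11d and 0.00889 for Cirbp. Cirbp, a cold-inducible RNA-binding protein, had 62.6, 84.8 and 71.0 CPM in HI tumours, against 49.7, 45.1 and 57.1 CPM in HC tumours. At ambient altitude it had 41.3, 55.4 and 41.0 CPM in MI tumours, against 67.5, 61.1 and 89.1 CPM in MC tumours, the opposite order, with an interaction of 1.18 (SE 0.24). For Zfp36l2 the interaction was 0.54 (SE 0.11), from levels of 450.3, 492 and 471 CPM in MI tumours, against 537, 528 and 528 CPM in MC tumours. Rnf125, a ubiquitin ligase that acts on RIG-I, had 11.5, 12.4 and 10.4 CPM in HI tumours, against 18.4, 15.7 and 13.3 CPM in HC tumours. At ambient altitude it had 16.5, 13.6 and 17.1 CPM in MI tumours, against 9.31, 11.1 and 10.2 CPM in MC tumours, again the opposite order, with an interaction of -1.09 (SE 0.20). Hsh2d and Phf11d had interactions of -1.06 (SE 0.20) and -0.74 (SE 0.15), from log2 changes of 0.33 and 0.25 in MI against MC tumours.

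Scores were apart between HI and HC tumours for 5 of the 43 lists, where 11.4% of all single genes were apart. These 5 lists differed in what they did at ambient altitude. The erythroid list, Slc4a1 included, was higher in both settings, with medians of 1.66 for HI against HC and 2.49 for MI against MC. Slc4a1 passed the count minimum through HI tumours. The other 5 genes had log2 changes of 1.55 to 1.83 for HI against HC and 2.29 to 2.89 for MI against MC. The T and natural killer list was higher in both, at 0.42 and 0.76. Its ambient scores were 1.06, 0.31 and -0.14 in MI tumours, against -0.23, -0.33 and -0.19 in MC tumours. MI1 was far the highest, and MI3 was close to MC3. For endothelial genes the medians were -0.35 and 0.09, for interferon response genes -0.22 and 0.25, and for ER chaperones -0.11 and 0.15, opposite in sign. In these 3 lists 11 of 27, 14 of 24 and 3 of 19 members had an interaction p under 0.05 before adjustment. Over all genes 8.2% did, and 0 members passed after adjustment in edgeR. The 3 lists were singled out by opposite medians in the same libraries, so such shares are partly built in and no separate support. Members of a list are also not independent. The ambient scores for endothelial genes were 0.36, 0.05 and 0.17 in MI tumours, against 0.08, 0.11 and 0.12 in MC tumours, with MI1 highest, and those for interferon response genes were 0.34, 0.04 and 0.07 in MI tumours, against 0.01, -0.14 and -0.16 in MC tumours, again with MI1 highest.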

How the data were processed

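Bulk RNA sequencing of 12 mouse tumours, 3 per group, was deposited as a table of raw whole-number counts and a table of FPKM values. The submitters' processing notes name the build GRCm39 and, without their roles, R 3.5.1, DESeq2 1.22.2, HTSeq 0.11.2, HISAT2 2.1.0 and fastp 0.20.1. Which annotation and strand setting served for counting is not given in the sources used here. Per the labels' protocols, libraries were made with a VAHTS Universal V10 kit from TRIzol-extracted total RNA and read as pairs of 150 bases. The authors' FPKM values scale the same counts by gene length: 100% of 177367 values imply a whole length within 0.01 base.

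The deposited counts were analysed by edgeR 4.0.16 under R 4.3.3, with TMM factors, 1 mean per group and the quasi-likelihood test, fitted to the 12 libraries together. The contrasts were HI minus HC, MI minus MC and their difference, with Benjamini-Hochberg adjustment over 14792 genes and a threshold of 0.05. Totals of the 6 libraries were 31661685 to 39762631 counts. P-values set a difference against the spread between tumours of separate mice, estimated from all 12 libraries, MI and MC included. With edgeR on the 6 HI and HC libraries alone, the lowest adjusted p was 0.867. Deviations from the group mean in same-numbered HI and HC tumours correlated at -0.0162, -0.0894 and 0.282. These are too few values to decide whether the numbers pair the tumours, and the main test used no pairing. The code was tested on simulated data. Alternatives were DESeq2 1.42.0, limma 3.58.1 (voom, and log2 FPKM with pseudocounts of 0.1 and 1), DESeq2 size factors, no filter, a filter of 1 CPM, the 6 libraries alone, a replicate block and leaving out each library.

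The genes, the 43 lists (736 names, 708 tested) and the comparison were chosen with earlier results of these data known, and the lists described at length were chosen after their values were seen. A rule named 13 genes in all cases, the 12 apart genes per direction with the smallest p among those with at least 5 CPM, 3 per direction for the interaction and up to 4 members per described list. Predicted genes, clones, pseudogenes and receptor segments were left out. List scores used log2 CPM with a prior count of 2. Promoters came from RefSeq on GRCm38.p6, matched by symbol for 11515 of 14792 genes, and no positions on GRCm39 are given.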

Additional observations from a re-analysis of the deposited data

Results flagged for a closer look

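Of the named genes 9 were apart in opposite directions under IOX2 at the 2 altitudes, and the difference between the effects was tested as an interaction. The 9 were chosen by this separation in the same libraries, so a large interaction is part of their choice and no separate support. Higher with IOX2 at simulated altitude and lower at ambient altitude were Cirbp (interaction log2 1.18), Ddit4 (0.88), Dnajc27 (0.59), Vopp1 (0.44) and Zfp36l2 (0.54). Lower at simulated altitude and higher at ambient altitude were Hsh2d (-1.06), Hsph1 (-0.78), Mertk (-1.63) and Rnf125 (-1.09). Each had an edgeR adjusted p of 0.598, so none passed in edgeR, while DESeq2 called all 9, with adjusted p values from 0.000551 (Ddit4) to 0.00889 (Cirbp, Dnajc27, Vopp1 and Hsph1). Over all genes, 134 of 14792 genes (0.906%) showed such opposite separation. For Mertk the levels were 13.4, 11.2 and 9.61 CPM in HI tumours, against 27.9, 14.8 and 20.9 CPM in HC tumours, and 18.1, 11.4 and 14.8 CPM in MI tumours, against 8.93, 9.69 and 7.89 CPM in MC tumours. HC tumours had the highest mean level of Mertk and MC tumours the lowest.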

How the results depend on the processing

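The count of genes called between HI and HC tumours was 0 in the main test and under every alternative but 2: DESeq2 called 25 and the replicate block called 3 (Hbb-bt, Hba-a1 and Hbb-bs, adjusted p = 0.0373 each). Same-numbered HI and HC tumours correlated at -0.0162, -0.0894 and 0.282, too few values to decide whether the numbers pair them. For the interaction DESeq2 called 32 genes, and leaving out single libraries gave 0 to 2, the 2 without MI2. Leaving out single libraries turned the sign of 6 named genes, none of them leading: Arnt -0.13 to 0.0071, Egln2 -0.026 to 0.032, Egln3 -0.12 to 0.35, Hif1a -0.049 to 0.15, Slc40a1 -0.13 to 0.18 and Tfrc -0.22 to 0.45. None of the 24 leading genes changed sign under any alternative run. These genes were chosen as apart, with every HI tumour beyond every HC tumour in the same direction. Leaving out a single library could therefore hardly turn their sign, so this result is part of their choice and no separate support. The causes of the sign changes and of the differing counts were not tested. With 3 tumours a group, low genes such as Ly6g and Slc4a1 are close to the counting floor.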
